A study of Mus musculus with 24 samples.

Results

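The comparison was of mitochondrial DNA (mtDNA) from mouse embryonic stem cells (ESCs) with mtDNA from mouse liver, each converted with bisulfite for 60 min. Of the 24 libraries of the study, 5 were used, 3 from separate ESC preparations and 2 from separate liver preparations. Sites were kept where a cytosine had a coverage of 10 reads or more in all 5 libraries, separately for each strand, which left 1872 cytosines of the L strand and 1833 of the H strand, 3705 of the 5829 listed. The ESCs were the E14 line, grown in 2i-LIF medium on feeder cells made from mouse STO fibroblasts, with no strain on the labels. The livers were from C57BL/6J mice. Mitochondria of both groups were purified and treated with Benzonase, their DNA was linearised with BglII, and λDNA was added before conversion. Per the study's methods, centrifugation forces differed between ESCs and tissue, and a step of it was repeated for tissue only. ESCs and liver thus differed in culture against tissue, in cell type and in these steps together, and possibly in strain. These cannot be told apart. ESC preparations can carry feeder cell mtDNA, whose share was not tested. The values are rates per cytosine, from which neither strain nor feeder cell mtDNA was checked, and any base that differs between strains would alter the rate of its site. A PCR copy of mtDNA without 5-methylcytosine (synthetic mtDNA, 1 library of 60 min) gave the background.

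Mouse mtDNA is a closed circle that encodes 13 subunits of the respiratory chain, 2 rRNAs and 22 tRNAs. Its H strand is rich in guanine and its L strand is rich in cytosine. Replication of the H strand starts in the noncoding control region, where many molecules hold a short extra strand, the D-loop. In nuclear DNA, 5-methylcytosine sits mostly at CpG, on both strands of the same CpG, and is written by DNA methyltransferases. Whether mtDNA carries it is debated. Bisulfite turns cytosine into uracil, which is read as thymine, and leaves 5-methylcytosine as it is, so the share of reads that still hold a cytosine, the unconversion rate, is an upper limit on methylation. A cytosine that escapes conversion for any other reason counts as well.

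The 5 libraries held 783281 to 972254 cytosine calls each. The median coverage of the kept sites was 44 to 56 reads for the L strand and 227 to 274 for the H strand, and H-strand calls outnumbered L-strand calls 3.42 to 3.77 times. At these depths 3 unconverted reads, taken as the least that shows a rate, correspond to 5.36 to 6.82% in an L-strand library and 1.10 to 1.32% in an H-strand library. No pair of libraries had the same coverage at more than 89 of the 3705 sites. The exact permutation tests below compare 3 libraries with 2, so that the smallest p they can give is 0.1.

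Cytosines that the comparison turned on are shown first in their reference sequence, read from the mouse RefSeq assembly GRCm38.p6, the mtDNA of mm10. Each sequence is 29 bases long, runs 5′ to 3′ along the strand that was measured, and has the measured cytosines in capitals. On the L strand, the largest ESC to liver difference was at 3 neighbouring cytosines of the 12S rRNA gene mt-Rnr1 (chrM:132-160), and the summed reads differed most at a pair near the end of CYTB (chrM:15229-15257).
mt-Rnr1 L strand: accggtgtaaaatCCCttaaacatttact
CYTB L strand: tcttaattcttataCCaatctcaggaatt
The largest H-strand differences were in CYTB (chrM:14497-14525), in the valine tRNA gene TrnV (chrM:1039-1067) and in the tyrosine tRNA gene TrnY (chrM:5293-5321). A CpG of mt-Rnr1 (chrM:250-278) had the smallest p of all sites by edgeR.
CYTB H strand: tgctgtggctatgaCtgcgaacagtagaa
TrnV H strand: ttctgggtgtaggcCagatgctttaatat
TrnY H strand: aatggctgagtaagCattagactgtaaat
mt-Rnr1 H strand, CpG: cttagtcaaactttCgtttattgcttaat
The H-strand cytosines with 5% or more in ESCs and in liver alike were in mt-Rnr1 (chrM:652-680), in the 16S rRNA gene mt-Rnr2 (chrM:1752-1780) and in the alanine tRNA gene TrnA (chrM:5036-5064).
mt-Rnr1 H strand, shared: ataggctgaattagCaagagatggtgagg
mt-Rnr2 H strand, shared: ttatacgcgtatgcCtggagaattggaat
TrnA H strand, shared: aattgatttgcattCaatagatgtaggat
The CpGs with 2% or more on both strands were in mt-Rnr1 (chrM:671-699) and in COX2 (chrM:7126-7154), shown on the L strand with the CpG in capitals.
mt-Rnr1 CpG: ttcagcctatatacCGccatcttcagcaa
COX2 CpG: cctctatatcatctCGctaatattaacaa

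The mean unconversion rate of neither strand separated ESCs from liver. On the L strand, the mean over 1872 cytosines was 32.0, 33.2 and 33.1% in ESC preparations 1, 2 and 3 and 33.2 and 32.4% in liver preparations 1 and 2. The means of the groups were 32.8% ± 0.715 (SD, n = 3) in ESCs and 32.8% ± 0.574 (SD, n = 2) in liver, a difference of -0.04 percentage points (exact permutation test, two-sided, p = 0.9). Synthetic mtDNA, which has no methylation, stood at 32.7%, inside the range of the 5 native libraries. Reads left almost wholly unconverted, which the study's methods set aside, appear to be included in these rates. On the H strand, the mean over 1833 cytosines was 0.439, 0.401 and 0.643% in the ESC preparations and 0.633 and 0.549% in the liver preparations. ESC preparations 1 and 2 lay below both livers and ESC preparation 3 lay above both, so the groups overlapped, and without ESC preparation 3 they did not. The difference was -0.097 points, with means of 0.494% ± 0.130 (SD, n = 3) in ESCs and 0.591% ± 0.0594 (SD, n = 2) in liver (exact permutation test, two-sided, p = 0.5), and synthetic mtDNA stood at 0.466%.

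CpG, the context that mammalian methyltransferases prefer, was the least unconverted context of the L strand in each of the 5 libraries. The same held in synthetic mtDNA, which has no methylation, so this order does not bear on methylation. The 112 L-strand CpG cytosines had means of 7.46, 7.83 and 7.94% in ESCs and 8.06 and 7.56% in liver, with 7.51% in synthetic mtDNA. The difference was -0.067 points (exact permutation test, two-sided, p = 0.8). The 265 H-strand CpG cytosines had means of 0.479, 0.346 and 0.673% in ESCs and 0.524 and 0.524% in liver, with 0.392% in synthetic mtDNA. The difference was -0.025 points, and liver lay within the range of the ESC preparations (exact permutation test, two-sided, p = 0.7). In CHG, where H is any base but G, 167 L-strand sites averaged 8.46% ± 0.374 in ESCs and 8.50% ± 0.320 in liver (SD, n = 3 and 2), and 351 H-strand sites averaged 0.669% ± 0.136 and 0.781% ± 0.0687. In CHH, 1593 L-strand sites averaged 37.1% ± 0.786 in ESCs and 37.1% ± 0.616 in liver. Synthetic mtDNA had 8.24% in L-strand CHG and 37.0% in L-strand CHH. The 1217 H-strand CHH sites had 0.375, 0.368 and 0.586% in ESCs and 0.5997 and 0.501% in liver, a difference of -0.108 points (exact permutation test, two-sided, p = 0.3). H-strand CpG was thus above CHH in ESC preparations 1 and 3 and liver preparation 2. It was below CHH in ESC preparation 2 and liver preparation 1. Split by the next base, the largest difference on either strand was -0.346 points, in L-strand CC, within the spread of the libraries (exact permutation test, two-sided, p = 0.7).

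**Figure D1:**
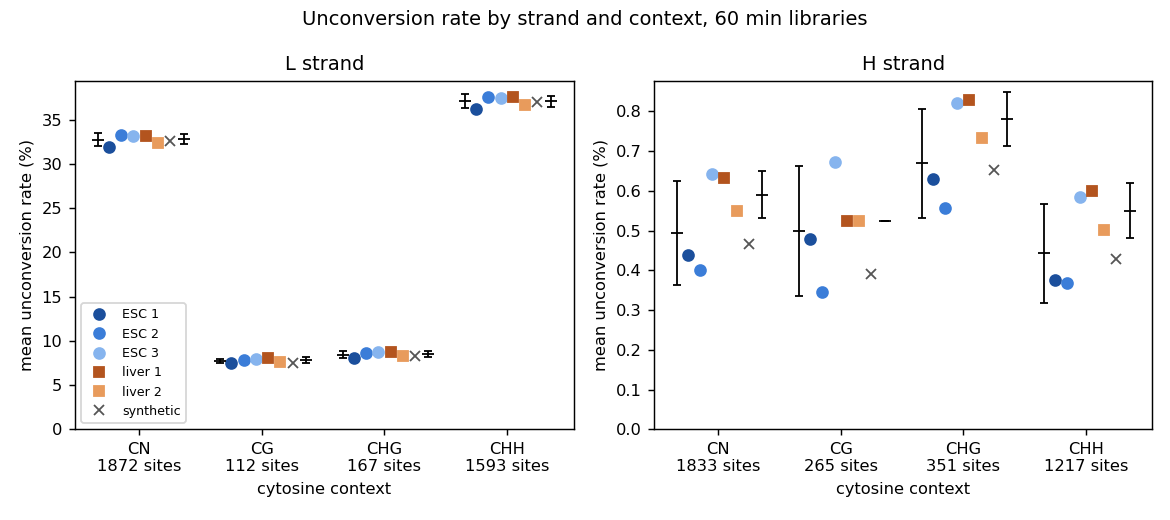
Mean unconversion rate in percent (vertical axes, from 0) of the sites of each context on the L strand (left) and the H strand (right). Circles are ESC preparations, squares are liver preparations, the cross is synthetic mtDNA, and the bars left and right of each set are the ESC and liver means with their SD. L-strand means of all cytosines lie between 32.0 and 33.2% and H-strand means between 0.401 and 0.643%, with ESC preparation 3 at the top.

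A maintained methylation of CpG would show on both cytosines of the pair. CpG cytosines numbered 277 among those listed on each strand. Of the CpGs, 104 had both cytosines covered in all 5 libraries, so most were not examined as pairs. Their mean over the pair was 4.23, 4.39 and 4.67% in ESCs and 4.57 and 4.40% in liver, with 4.23% in synthetic mtDNA, a difference of -0.061 points (exact permutation test, two-sided, p = 0.8). No pair had a mean of 5% or more on both strands, while 13 of the 104 had it on the L strand. At 2% or more, 21 pairs passed by their L cytosine, 5 by their H cytosine and 2 by both. The first of these, in mt-Rnr1, had L-strand rates of 2.3, 4.5 and 2.3% in ESCs and 2.1 and 3.7% in liver at coverages of 22 to 54, and H-strand rates of 3.0, 3.3 and 2.0% in ESCs and 1.8 and 1.8% in liver. The ESC values lay above the liver values at its H cytosine, and the groups overlapped at its L cytosine. The other, in the cytochrome c oxidase gene COX2, had 72.7, 86.5 and 86.1% in ESCs and 75.8 and 76.5% in liver at its L cytosine, but 2.1, 2.1 and 2.7% against 2.1 and 1.5% at its H cytosine. Synthetic mtDNA gave 76.9 and 1.2% at the L and H cytosine of that CpG. At the mt-Rnr1 CpG it gave 0 and 1.7%, below each of the 5 native libraries at both cytosines. At the L cytosine of that CpG, each native rate rested on fewer than the 3 unconverted reads taken as the least that shows a rate. At its H cytosine the livers, at 1.8%, were barely above synthetic mtDNA.

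L-strand cytosines fell into classes that ESCs and liver shared. Of the 1872 sites, 1083 had a mean under 10% in both groups, 251 lay from 10 to under 90% in both and 451 reached 90% or more in both, so that 95.4% were in the same class. No site was under 10% in a group and 90% or more in the other. When the classes were set by synthetic mtDNA instead, the 1094 sites it had under 10% averaged 0.943, 1.42 and 1.53% in ESCs and 1.11 and 1.24% in liver. Its 327 intermediate sites averaged 44.8, 49.5 and 48.9% in ESCs and 50.6 and 46.2% in liver, with the widest spread of any class. Its 451 sites of 90% or more averaged 98.3% ± 0.391 in ESCs and 98.3% ± 0.376 in liver (SD, n = 3 and 2). The classes differed by 0.125, -0.63 and -0.019 points between ESCs and liver (exact permutation tests, two-sided, p = 0.6, 0.8 and 1). The sequence within 50 bases on either side of a site held 15.05% G on average in the lowest class, 9.55% in the intermediate class and 5.55% in the highest.

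On the H strand, only 3 sites had a mean of 5% or more in ESCs and in liver. The mt-Rnr1 site, a CHH cytosine, had 4.1, 6.5 and 10.7% in ESCs and 6.6 and 7.1% in liver. The mt-Rnr2 site, in CHG, had 10.1, 7.0 and 14.3% in ESCs and 9.7 and 9.5% in liver. The TrnA site, in CHH, had 11.7, 7.0 and 10.6% in ESCs and 14.8 and 7.8% in liver. Groups overlapped at each of the 3, and synthetic mtDNA had 6.2, 11.1 and 8.1% there. No unconverted read was seen in any of the 5 libraries at 155 H-strand sites (8.46%) and 289 L-strand sites (15.4%).

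By gene, the L-strand rate ran over the whole scale in ESCs and liver alike, whereas the H-strand rate stayed near 1% or below in each protein gene. Genes and regions with 5 or more kept sites, 26 for the L and 35 for the H strand, were compared with limma on the arcsine square root of their mean rate. None of the 61 differed at a Benjamini-Hochberg adjusted p under 0.05 (0%), and 2 (3.28%) had an unadjusted p under 0.05, the H strand of ATP6 and of TrnY. No direction is given for a single region whose libraries overlapped between the groups. The intervals of regions come from limma on untransformed rates, without adjustment, and so from another fit than the adjusted p.

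Among the genes of complex I, the NADH dehydrogenase, the L-strand rate went from 27.8% in ND1 to 99.5% in ND6 in ESCs, and from 26.0 to 99.3% in liver. None of the 7 passed the test on either strand. ND1 had 28.1, 27.1 and 28.1% in the ESC preparations and 25.6 and 26.4% in the liver preparations. Its groups did not overlap, with a difference of 1.76 points (limma, adjusted p = 0.931), and synthetic mtDNA was lower than all 5 at 24.0%. The difference was 3.73 without ESC preparation 1, but sites were then chosen again by coverage in the remaining libraries. That value therefore rests on other sites as well as on fewer libraries. After 40 min of conversion, ND1 had 27.4 and 28.6% in ESC preparations 1 and 2 and 26.0% in liver preparation 1. ND4L, the smallest subunit gene of the complex, had the widest ESC spread, 27.8, 48.7 and 35.1%, around the 40.9 and 41.8% of liver. ND2 averaged 81.3% in ESCs and 82.5% in liver, ND4 69.6 and 70.5%, ND5 52.9 and 53.2%, and ND3 49.4 and 50.2%. The H strands of the 7 genes lay between 0.201 and 1.03% in ESCs and between 0.210 and 0.907% in liver. ND1, ND4L and ND4 were lower in each ESC library than in either liver library there. ND4 had 0.244, 0.219 and 0.244% in ESCs and 0.261 and 0.317% in liver.

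CYTB, the only mitochondrial gene of complex III, averaged 36.1% ± 1.37 on the L strand in ESCs and 34.2% ± 0.870 in liver (SD, n = 3 and 2). In complex IV, the cytochrome c oxidase, COX1 was among the lowest genes of the L strand, with 2.72% ± 0.466 in ESCs and 2.85% ± 0.198 in liver, COX3 had 3.79% ± 1.37 and 3.26% ± 0.950, and COX2 had 21.6% ± 3.04 and 19.97% ± 1.496. The libraries of the groups overlapped in all 4 genes. With reads pooled over sites, the difference became 14.8 points in CYTB, from 1.85, and 6.09 points in COX2, from 1.64, and COX2 stood at -1.56 with a coverage minimum of 30. The H strand of COX1 had 0.325, 0.304 and 0.352% in ESCs and 0.591 and 0.441% in liver. The groups did not overlap, but the difference of -0.189 points was within its interval half-width of 0.257 (limma, adjusted p = 0.931). After 40 min the order was the other way, with 0.595 and 0.563% in ESCs and 0.455% in liver. In complex V, the ATP synthase, ATP8 was close to complete unconversion on the L strand, with 99.6% in ESCs and 99.9% in liver, and its neighbour ATP6 had 51.2 and 50.8%. The H strand of ATP6 had 0.273, 0.274 and 0.358% in ESCs and 0.730 and 0.558% in liver, with 0.295% in synthetic mtDNA. Its difference of -0.342 points (half-width of the 95% interval 0.275, limma, adjusted p = 0.916) was the largest of the protein genes on that strand. At 40 min it was 0.376 and 0.462% in ESCs and 0.647% in liver.

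The rRNA genes were low on the L strand. The L strand of mt-Rnr1 had 3.39, 4.42 and 3.67% in ESCs and 4.49 and 5.28% in liver, without overlap, with 3.88% in synthetic mtDNA. The difference of -1.06 points fell to -0.052 without 3 adjacent cytosines, at positions 145 to 147 (an alternative chosen after seeing the data), and to -0.34 and -0.034 with a coverage minimum of 20 and 30. At 40 min the ESC libraries had 7.72 and 3.43% and the liver library 6.55%, so that the order was not kept. The L strand of mt-Rnr2 overlapped, with 7.45% ± 0.515 in ESCs and 7.49% ± 1.14 in liver. The H strand of mt-Rnr1 had 0.866, 0.537 and 1.54% in ESCs and 1.27 and 0.882% in liver, and that of mt-Rnr2 had 0.380, 1.001 and 1.02% against 0.610 and 0.715%. Both overlapped, and their group means were above those of the whole H strand. Of the tRNA genes, TrnM, for methionine, had the largest L-strand difference, 18.3, 41.3 and 18.4% in ESCs against 4.18 and 15.8% in liver, over 6 sites. That difference of 15.997 points had an interval half-width of 25.6 points (limma, adjusted p = 0.916). It was 8.35 without ESC preparation 2 and 10.2 without liver preparation 1, and the 40 min libraries had 7.78 and 31.6% in ESCs and 10.03% in liver. TrnH, for histidine, overlapped with 9.27, 16.8 and 9.89% against 11.02 and 5.38%. In H-strand sites, TrnV had 0.6, 4.19 and 0.843% in ESCs and 1.34 and 0% in liver, and TrnI, for isoleucine, 1.036, 1.14 and 0.691% against 3.19 and 0.882%. Both overlapped. TrnY had 0.445, 0 and 0.191% in ESCs and 0.873 and 1.25% in liver (limma, adjusted p = 0.916). At 40 min its ESC libraries had 0.373 and 1.72% and its liver library 0%. Without ESC preparation 3, the H strand of TrnD alone was called, where ESC preparations 1 and 2 had 0% and the livers 0.920 and 0.780% over 5 sites.

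The control region, which holds the promoters and the origin of the H strand, overlapped on both strands. Its L strand had 11.9, 8.62 and 8.73% in ESCs and 10.1 and 9.88% in liver, with 10.9% in synthetic mtDNA. Its H strand had 0.445, 0.346 and 0.632% in ESCs and 0.472 and 0.599% in liver, with 0.389% in synthetic mtDNA. In conserved sequence block 2, where the RNA primer of H-strand synthesis ends, 12 L-strand cytosines averaged 18.9, 7.78 and 5.51% in ESCs and 12.2 and 8.88% in liver. The L strand of ETAS1, a termination-associated sequence, had no kept site, its mean coverage being 1.18 to 2.91 reads.

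Over all regions, the L-strand libraries did not overlap in 2 regions higher in ESCs (7.69%, ND1 and TrnM) and 1 higher in liver (3.85%, mt-Rnr1). Of the H-strand regions, none (0%) was higher in each ESC library than in both livers and 9 of the 35 (25.7%) were lower, namely ND1, TrnM, TrnC, TrnY, COX1, TrnD, ATP6, ND4L and ND4. In the 40 min libraries, 1 of these 9, ATP6, was again lower in both ESC libraries than in liver, 5 (TrnC, TrnY, COX1, TrnD and ND4L) were higher in both, and in 3 the liver lay between the ESC libraries. The median difference of the 35 H-strand regions was -0.112 points, and 27 of them had the lower mean in ESCs. Over the whole H strand, ESC preparations 1 and 2 had the lowest means of the 5 libraries and ESC preparation 3 had the highest. The part of these library means in the counts was not tested.

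**Figure D2:**
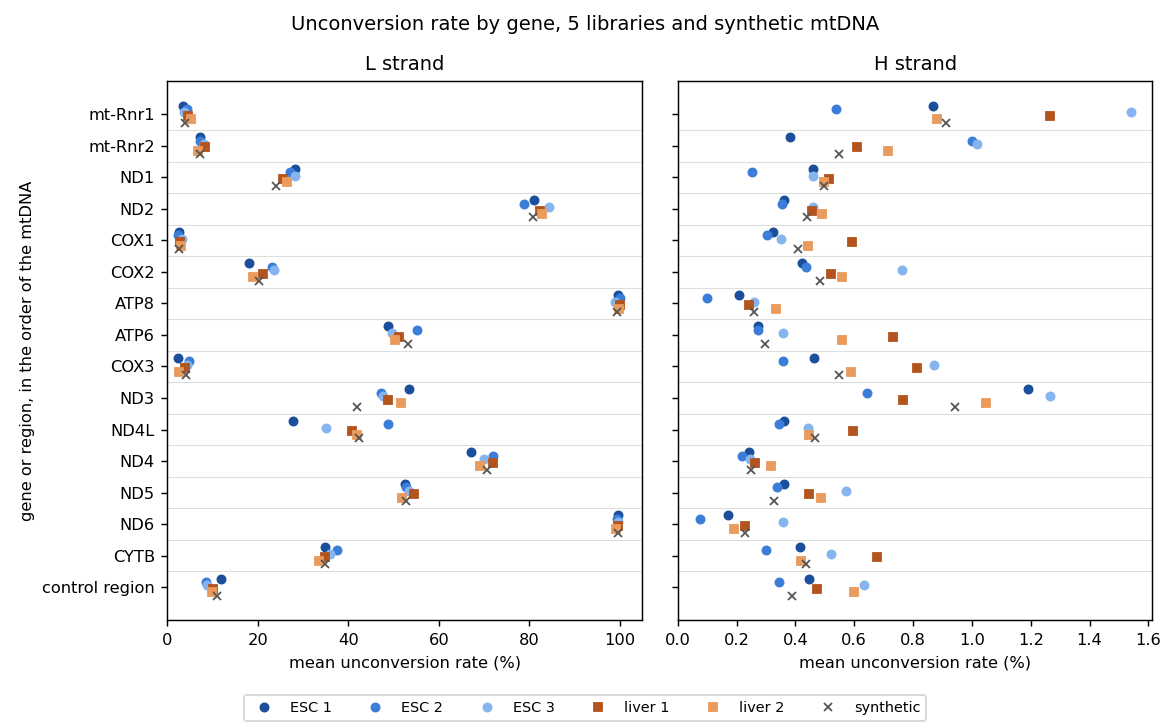
Mean unconversion rate in percent (horizontal axes, from 0, on different scales) of the 13 protein genes, both rRNA genes and the control region on the L strand (left) and the H strand (right). Circles are ESC preparations, squares are liver preparations and crosses are synthetic mtDNA. L-strand genes lie anywhere from 2.72% (COX1, ESC mean) to 99.6% (ATP8) with the sources together, and on the H strand ATP6 and COX1 show the liver squares to the right of all ESC circles.

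Site by site, ESCs and liver followed the same L-strand pattern. Pearson's r between the group means of the 1872 L-strand sites was 0.994, beside 0.982 to 0.992 between ESC preparations and 0.99 between the livers. At the H-strand sites r was 0.586, beside 0.337 to 0.485 between ESC preparations and 0.356 between the livers. The r of group means is between averages of 3 and 2 libraries and the others are between single libraries. They are therefore not alike, and a higher r of the means does not show closer agreement than between replicates. These values are across sites, which share libraries, reads and base composition, and they describe the libraries only. The difference between group means had a median size of 0.692 points at L-strand and 0.233 points at H-strand sites, and a 95th percentile of 10.8 and 1.43 points. Replicates of a group varied more than counting alone gives, 2.08 times the binomial variance at L-strand and 1.26 times at H-strand sites. Only sites where at least an unconverted and a converted read were expected in each library entered. These were 601 L-strand sites in ESCs and 649 in liver, and 605 and 786 H-strand sites.

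No site was called by edgeR's quasi-likelihood test on unconverted and converted reads at a Benjamini-Hochberg adjusted p under 0.05 (0% of the 1872 L-strand and 0% of the 1833 H-strand sites). At an unadjusted p under 0.05 there were 22 L-strand sites (1.18%) and 55 H-strand sites (3%). Both shares lie below the 5% that this threshold would pass with no difference, so the absence of calls shows little. By limma on the arcsine square root, 23 of the 1872 L-strand and 33 of the 1833 H-strand sites were called. ESCs were higher at 6 of these 23 and at 4 of these 33, and liver at the others. No library exceeded 5% at 14 of these 23 and at all of the 33, and the median range within a group was 0.4 and 0.1 points. Reads summed over libraries and compared by Fisher's exact test, which leaves out the spread between preparations, gave 2 calls and 1 call among the same sites. The libraries did not overlap at 95 L-strand sites higher in ESCs (5.07%) and 81 higher in liver (4.33%), and at 59 H-strand sites higher in ESCs (3.22%) and 168 higher in liver (9.17%). Neighbouring sites share reads and count together. On the L strand, ND2 held 29 of the 81 (19% of its sites), and TrnM was higher in ESCs at 5 of its 6 sites. On the H strand, liver was higher at 19.7% of the ATP6 sites, 16.9% of those of ND2, 14.2% of COX1 and 13.5% of ND1, while mt-Rnr1 had 12 sites higher in ESCs (9.09%) and 6 higher in liver (4.55%). In CpG, the H-strand counts were 13 higher in ESCs (4.91%) and 20 higher in liver (7.55%).

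The largest L-strand differences were at the 3 adjacent cytosines of mt-Rnr1 at positions 145, 146 and 147, in the run CCC shown above. Position 147 had 25, 20 and 18.2% in ESCs and 55.2 and 54.2% in liver, at coverages of 20, 10 and 22 against 29 and 24. Position 145 had 21.1, 20 and 17.4% against 55.6 and 45.5%, and position 146 had 21.1, 20 and 18.2% against 53.6 and 47.8%. The groups differed by -33.6, -31.1 and -30.9 points, at sites picked as the largest differences without overlap. Both livers lay below the 62.3 to 64.4% of synthetic mtDNA, and the ESCs lay further below it. The edgeR p at position 147 was 0.0358 and its adjusted p 1. At 40 min the order was not kept: position 147 had 83.8 and 41.7% in ESCs and 75% in liver. The 3 sites share reads, so they make a single observation, and the 5 L-strand cytosines at positions 119 to 127 stood at 6.5% or less in each of the 5 libraries.

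On the H strand, the CHG cytosine of CYTB at position 14511 had 5.3, 4.0 and 1.7% in ESCs and 30 and 5.4% in liver, with 6.7% in synthetic mtDNA. Liver preparation 1 alone stood high there, with 15 of 50 reads unconverted, and the difference of -14.0 points became -1.73 without it (edgeR p with it 0.0183, adjusted p 1). The CHG cytosine of TrnV at position 1053 had 2.2, 6.7 and 5.9% in ESCs, from 1, 2 and 3 unconverted reads, and 0 of 38 and 0 of 61 reads in liver. The CHH cytosine of TrnY at position 5307 had 0, 0 and 2.1% in ESCs and 6.2 and 3.3% in liver, from 3 reads in each liver library. Neither had an unadjusted p under 0.05 by edgeR. At 40 min the CYTB site had 8.2 and 11% in ESCs and 17.4% in liver preparation 1, and the TrnV site 3.6 and 7.7% against 2.2%, both in the order of 60 min. The TrnY site had 0 and 8.5% in ESCs and 0% in liver.

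The 3 sites that passed Fisher's test on summed reads are given as well, chosen after their values were seen. At positions 15243 and 15244 of CYTB, on the L strand, all ESC libraries and liver preparation 1 were at 100%, and liver preparation 2 was at 64.9 and 60.3%, with 86.8 and 85.3% in synthetic mtDNA. The differences of 17.6 and 19.9 points rest on liver preparation 2 and were 0 without it. At position 264 of mt-Rnr1, the H-strand CpG had 3.8, 2.0 and 4.4% in ESCs, from 6, 2 and 8 unconverted reads, and 0.3 and 0.3% in liver, from 1 of 390 reads in each. The ESC libraries were each above both livers, by 3.10 points between the means, and synthetic mtDNA stood at 2.0%, within the ESC range. Its edgeR p was 0.000318 and its adjusted p 1. At 40 min the same CpG had 0.8 and 0.3% in ESCs and 0.9% in liver. The L-strand cytosine of that CpG had 0, 0 and 7.1% in ESCs, the last from 1 of 14 reads, and 0% in both livers.

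**Figure D3:**
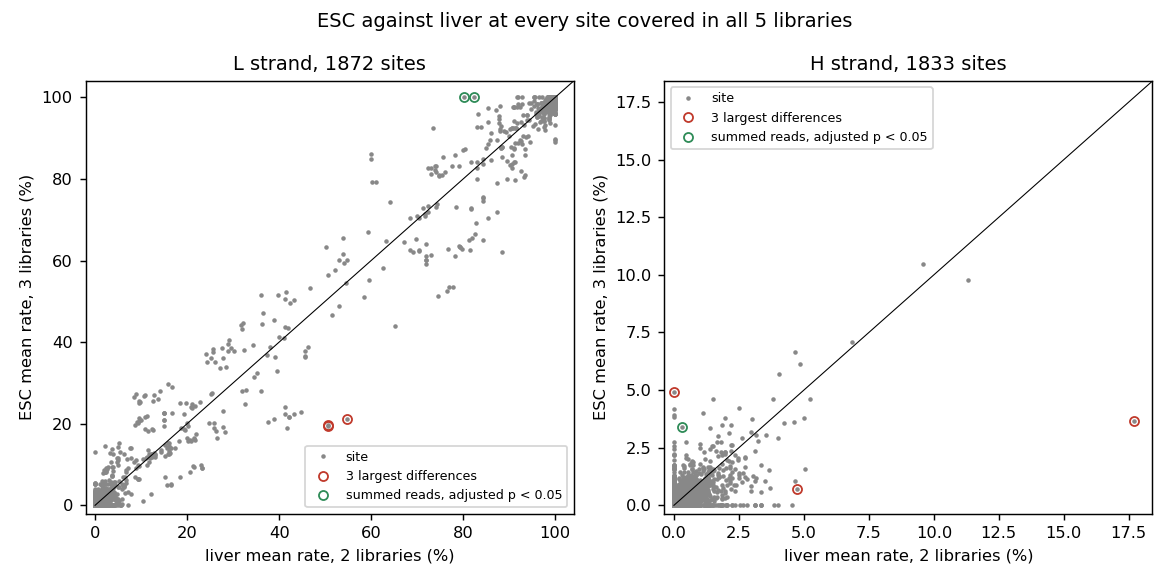
Mean unconversion rate in percent of each site in 3 ESC libraries (vertical axes) against 2 liver libraries (horizontal axes), for 1872 L-strand sites (left) and 1833 H-strand sites (right), with the line of equal rates. Red rings are the 3 largest differences between groups that do not overlap and green rings the sites called from summed reads. L-strand sites follow the line from 0 to 100% (r = 0.994), with the ringed mt-Rnr1 sites below it, and nearly all H-strand sites lie under 5%.

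How small a difference these depths can show was computed for each site with Fisher's exact test, as the lowest ESC rate that differs at p under 0.05 from a liver without any unconverted read. This covers counting error alone, and the spread between preparations adds to it. L-strand coverage appears to include the almost wholly unconverted reads that the study's methods set aside. The depth without them would be lower, and per-site values do not give it. For a site looked at alone, the median was 4.69% for L-strand and 0.922% for H-strand sites, at median summed coverages of 153 and 734 reads in ESCs and 98 and 530 in liver. With the threshold divided over all sites, it was 14.9 and 2.96%. In the other direction, liver above ESCs at 0, the medians were 3.95 and 0.783% for a site alone and 12.4 and 2.57% over all sites. A rate of 5% in ESCs could be told from 0 at 52.4% of the L-strand sites, and a rate of 1% at 54.3% of the H-strand sites. By gene, the H strand was most finely resolved in TrnE (0.274%), ND4 (0.285%) and ATP8 (0.337%) and least in TrnY (7.76%), TrnV (4.69%) and TrnI (4.19%). A liver at 0 is not the case at many L-strand sites. Set against the reads that liver had, the smallest difference at a site alone was in the median 5.86 points upwards at sites under 10% in synthetic mtDNA, 12.3 points upwards and 13.8 downwards at intermediate sites, and 3.35 points downwards at sites of 90% or more, and on the H strand 1.31 points upwards. No higher ESC rate could have been told from liver at 345 of the 451 sites of 90% or more, nor at 23 of the 327 intermediate sites. Downwards, no lower ESC rate could have been told from liver at 975 of the 1094 sites under 10%. The same held at 1239 of the 1833 H-strand sites, so most of that strand could not show a lower rate in ESCs at a site alone. For whole genes, where the spread between preparations enters, the half-width of the 95% interval ran from 0.230 points (ND4) to 3.42 points (TrnV) on the H strand, with a median of 0.524, and from 0.873 to 25.6 points on the L strand, with a median of 2.09. These half-widths are not the limit of the region test, which used another fit and adjusted p. ND1 on the L strand and ATP6, TrnY and TrnC on the H strand differed by more than their half-widths and were not called.

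**Figure D4:**
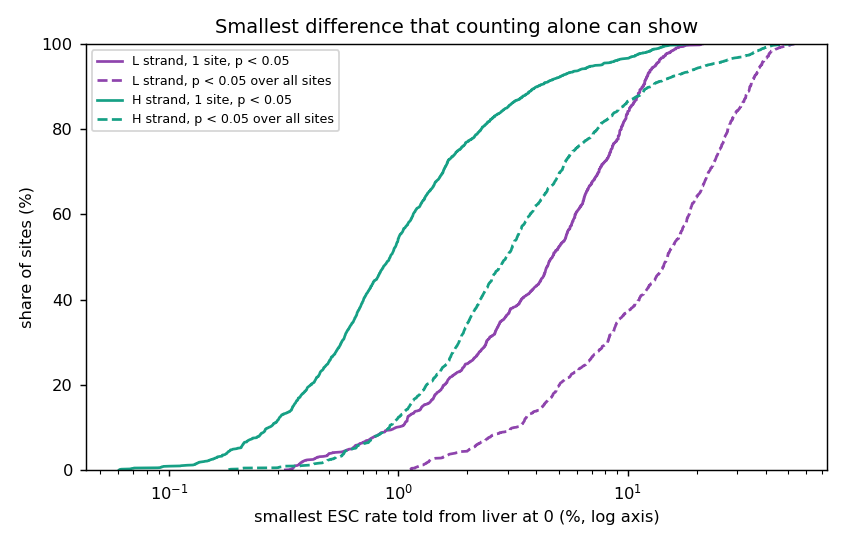
Share of sites in percent (vertical axis) whose coverage can tell a given ESC unconversion rate in percent (horizontal axis, log scale) from a liver at 0, by Fisher's exact test on summed reads. Solid lines are for a site alone and dashed lines for the threshold divided over all sites. The H strand reaches the middle of its sites at 0.922% and the L strand at 4.69%, or 2.96 and 14.9% over all sites.

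When reads instead of sites were given equal weight, the L-strand rate moved apart. Unconverted reads pooled over all L-strand sites made up 37.1, 35.5 and 38.0% in ESCs and 38.6 and 40.9% in liver, without overlap, a difference of -2.89 points (exact permutation test, two-sided, p = 0.1, the smallest possible). Synthetic mtDNA stood at 34.5%, below all 5. ND6, whose L strand is nearly unconverted, held 10.5, 6.02 and 9.79% of the L-strand coverage in ESCs and 12.4 and 15.8% in liver. Without ND6 the pooled rates were 29.8, 31.4 and 31.3% in ESCs and 30.0002 and 29.8% in liver (difference 0.907 points, p = 0.4 by the same exact test), so that the sign changed, and synthetic mtDNA was again lowest at 27.4%.

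Coverage itself was compared by region, since it decides which sites could be kept. On the L strand it appears to include the almost wholly unconverted reads too. None of 72 region and strand sums was called by edgeR (0%, smallest adjusted p = 0.171), 15 (20.8%) had an unadjusted p under 0.05, and DESeq2 called 9 (12.5%). Of these 9, the L strand of TrnA was higher in ESCs and the others were lower, among them the H strand of the control region. Relative to the mean of its strand, coverage did not overlap in 18 regions higher in ESCs (25%) and 14 higher in liver (19.4%). The H strand of COX1 was covered more in ESCs, at 1.22, 1.08 and 1.07 times the mean of the strand against 0.776 and 0.854 in liver (edgeR, adjusted p = 0.171). ATP8 was covered less, at 2.13, 1.93 and 2.18 times against 3.09 and 2.69 (H), and 0.586, 0.541 and 0.746 times against 0.961 and 1.10 (L). mt-Rnr1 on the H strand had 0.281, 0.384 and 0.282 times in ESCs and 0.452 and 0.451 in liver. DESeq2 called the ATP8 and mt-Rnr1 sums and not that of COX1.

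The H strand of the control region was covered 0.720, 0.716 and 0.770 times as deeply as the rest of its strand in ESCs and 1.003 and 0.881 times in liver. The groups did not overlap, with a ratio of 0.782 between them (exact permutation test, two-sided, p = 0.1, the smallest possible). At 40 min the ratios were 2.61 and 0.914 in ESCs and 1.57 in liver, so that the order was not kept, and synthetic mtDNA, which has no D-loop, stood at 1.07. On the L strand the ratios were 0.642, 0.506 and 0.667 in ESCs and 0.582 and 0.6005 in liver (exact permutation test, two-sided, p = 1).

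**Figure D5:**
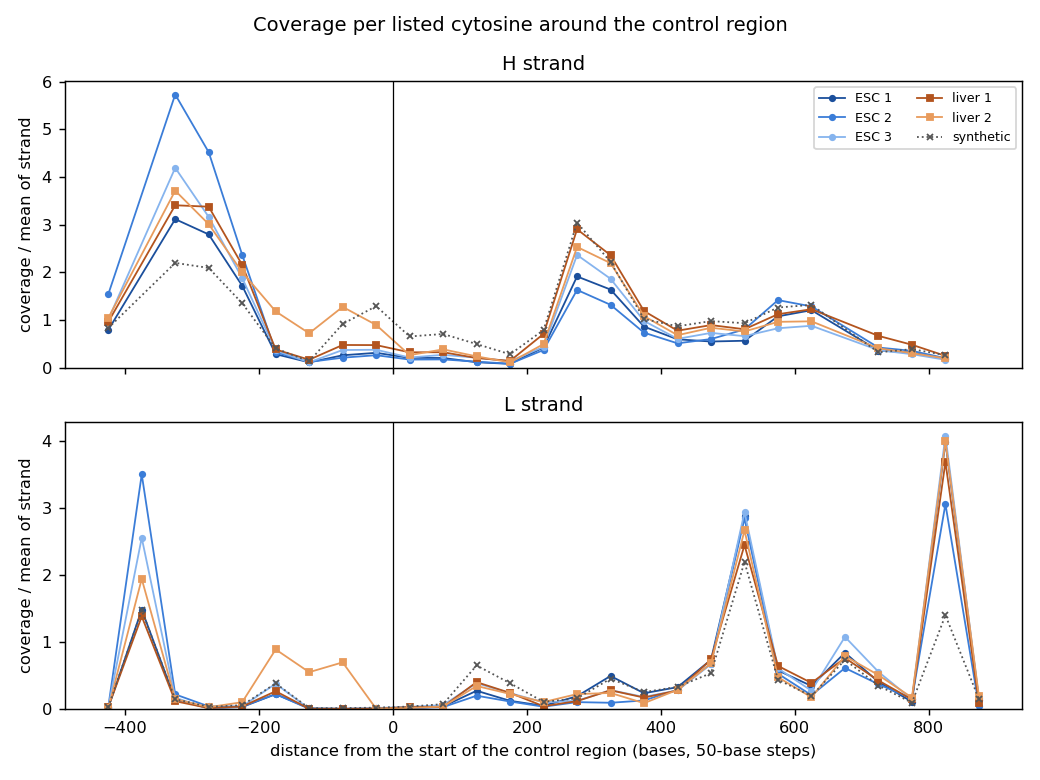
Coverage per listed cytosine divided by the mean of its strand (vertical axes), in steps of 50 bases by distance from the start of the control region (horizontal axis), on the H strand (top) and the L strand (bottom). Circles with lines are ESC preparations, squares are liver preparations and the dotted line is synthetic mtDNA. On the H strand, the liver lines lie above the ESC lines between 250 and 350 bases, and on both strands liver preparation 2 stands apart just before the start.

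Liver preparation 2 stood apart next to the control region, around the only BglII site of the mtDNA (chrM:15335-15340, in the threonine tRNA gene TrnT). On the L strand of TrnT, the ESC libraries and liver preparation 1 had no read, while liver preparation 2 had 529 cytosine calls with 4 unconverted (0.756%), and synthetic mtDNA had 14 calls. In the last 70 bases of CYTB, next to it, 95.04, 100 and 99.0% of L-strand calls were unconverted in ESCs, 100% in liver preparation 1 and 50.5% in liver preparation 2, from 523 calls against 105 to 210 in the others. The CYTB sites at positions 15243 and 15244 are in this stretch. The H strand of TrnT had 394, 344 and 481 calls in ESCs and 685 and 3008 in liver. Without liver preparation 1, edgeR called 3 coverage sums, both strands of TrnT and the H strand of the proline tRNA gene TrnP. Whether the BglII digestion of liver preparation 2 has a part in this was not tested.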

How the data were processed

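Mitochondrial DNA was measured by post-bisulfite adaptor tagging and sequencing. Per the labels and methods, the authors trimmed reads with Trim Galore, aligned them with Bismark to the mtDNA of mm10, and deposited, for each cytosine, the percent of reads unconverted and the coverage as a count of reads. The versions used for these libraries are not given in the sources used here. Reads with most cytosines unconverted, which the study's methods leave out, appear to be in the deposited values, and per-site values do not allow their removal. Replicates are biological preparations per the labels.

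Unconverted reads were taken as percent times coverage, rounded. Sites needed a coverage of 10 in all 5 libraries. Means weight sites equally. Sites and coverage were tested with edgeR 4.0.16 (quasi-likelihood), regions of 5 or more sites with limma 3.58.1 in R 4.3.3, and means with exact permutation tests over 10 splits (scipy 1.17.1). p-values were adjusted by Benjamini-Hochberg over both strands, with a threshold of 0.05. DESeq2 1.42.0, Fisher's exact test, coverage minimums of 20 and 30, pooled reads and leaving out each library were alternatives. The scripts were tested on simulated data. Intervals and floors cover counting error only, except those from limma. Genes and contexts came from the RefSeq annotation of GRCm38.p6.

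The text names called sites, or the 3 largest differences per strand among sites without overlap where fewer than 3 were called, all protein and rRNA genes, the control region, and the called or 2 most different tRNA genes per strand. Other sites and regions named were chosen after their values were seen. The members, lists and tests were chosen with earlier results of these data known. The λDNA spike-in and the libraries of other comparisons were not analysed here.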

Additional observations from a re-analysis of the deposited data

How the results depend on the processing

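The exact tests of mean rates could not pass 0.05 under any setting, and the signs of several small differences changed. The L-strand difference of ESCs minus liver, -0.04 points with all sites, was 0.25 with a coverage minimum of 20, 0.061 with 30, 0.35 without sites of 50% or more in synthetic mtDNA, and 0.91 with reads pooled without ND6, an alternative chosen after seeing the data. With the sites of each library it was -1.07. L-strand CpG, -0.067, was 0.077 without sites of 50% or more, -0.42 with the sites of each library and -2.89 with pooled reads. The intermediate L-strand class was 1.24 with a minimum of 20 and 0.79 with 30. The control region's L-strand coverage (log2 ratio) was -0.036 by the median.

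Leaving out each library gave -0.48 to 0.46 points for the L strand, -0.37 to 0.18 for L-strand CpG, -0.17 to -0.052 for the H strand, -0.11 to 0.052 for H-strand CpG, -0.18 to 0.039 for CpG pairs, and -0.023 to 0.29, -2.90 to 1.59 and -0.27 to 0.24 for the L-strand classes in rising order. The log2 coverage ratio of the control region ran from -0.053 to 0.15 (L) and from -0.45 to -0.26 (H). Region calls were 0 to 1 and coverage calls 0 to 3. For strand means, L-strand classes, site calls and region calls, sites were chosen again by coverage in the remaining libraries. Those values can therefore rest on other sites. At positions 15243 and 15244 of CYTB the difference was 0 without liver preparation 2.

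Site calls were 0 on each strand by edgeR, 2 and 1 by Fisher's exact test and 23 and 33 by limma, on the L and H strand. Coverage calls were 0 by edgeR and 9 by DESeq2. The cause was not tested. Of the 28 named regions with overlap, 10 of 218 values moved by the spread between libraries or more.

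Preparations share replicate numbers. The deviations of same-numbered ESC and liver libraries from their group means correlated at -0.14 and -0.15 (L) and 0.081 and -0.077 (H). With 2 livers, the deviation of each is the negative of the other's, so these values cannot decide whether the numbers pair preparations. With a replicate block, site, region and coverage calls were 0, and the L-strand coverage ratio of the control region was -0.053. Depth, with a median of 44 to 56 reads at L-strand sites, and the spread between preparations both limit what can be seen.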
